A study of Homo sapiens with 9 samples.

Results

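NEAT1 and MALAT1 are long noncoding RNAs (lncRNAs) that stay in the nucleus and lie next to each other on chromosome 11 (hg38). They are described here through a list of places in the genome that give small RNAs, which is named for the breast cancer cohort of the TCGA project. The name does not say which tissues went in. Both were chosen by their large numbers of loci in this same list, so their counts, strands and positions are given as a description, with no test. A locus is a stretch of 1 strand of the genome where small RNA reads pile up, and a locus belonged to a gene if it overlapped the gene's span in GENCODE release 29. In all, 65 of the 108742 loci did so, 47 at NEAT1 and 18 at MALAT1.

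The series itself holds 9 small RNA libraries from MDA-LM2 cells, an established line selected from MDA-MB-231 breast cancer cells for spread to the lung. By their labels, 2 libraries each came from cells with siRNA knockdown of DCGR8 (the spelling of the labels), DROSHA and TARBP2, 1 from DICER knockdown and 2 from cells given a control siRNA. The locus list has no column for any of them, so no knockdown was compared with control and no library depth is known. Each locus carries the same score of 1, which means that the list shows where small RNAs were found and not how many.

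NEAT1 is the scaffold of paraspeckles, nuclear bodies that hold RNA-binding proteins and some RNAs. Its short isoform is polyadenylated, whereas its long isoform, which paraspeckles need, ends without a poly(A) tail. MALAT1 gathers in nuclear speckles, which store splicing factors, and it is among the most abundant long RNAs of many cell types. Both long transcripts end in an unusual way. RNase P, the enzyme that trims transfer RNA (tRNA) precursors, cuts in front of a tRNA-like fold, and the new end of the long RNA is protected by a triple helix of U-rich and A-rich stretches. The piece released from MALAT1, called mascRNA, is trimmed further by RNase Z and leaves the nucleus.

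Small RNA loci lay along the whole of both genes and almost all of them on the strand of the gene. NEAT1 (ENSG00000245532.8, chr11:65422774-65445540, plus strand) held 45 loci on its own strand and 2 on the other. The same-strand share was 95.7% (exact Clopper-Pearson 95% interval 85.5 to 99.5, counting error only). MALAT1 (ENSG00000251562.8, chr11:65497688-65506516, plus strand) held 18 loci on its own strand and 0 on the other, a same-strand share of 100% (exact interval 81.5 to 100). Of the lncRNAs named below as nearest in loci per kb or with most loci, only HELLPAR had opposite-strand loci. It had 4, and 6 on its own strand. A high same-strand share was thus not particular to NEAT1 and MALAT1. Every base of both spans is exonic in at least 1 annotated transcript, so the exonic counts are the same. By comparison, 940 of 16054 lncRNA genes (5.86%) had any same-strand exonic locus, and 847 of these had just 1. The list used to choose the genes gives this share too, so it is background and not evidence about them.

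**Figure D1:**
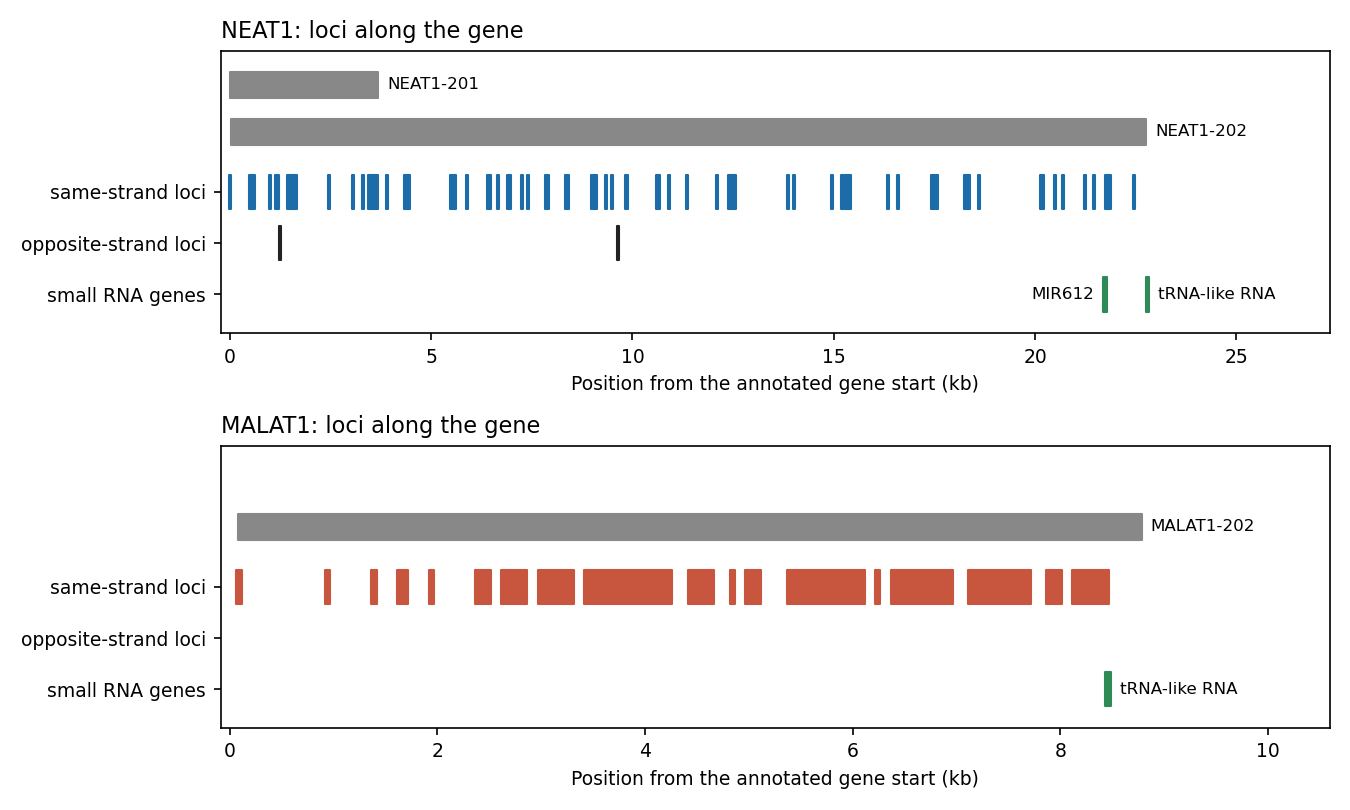
Loci along NEAT1 (upper panel) and MALAT1 (lower panel), by position from the annotated gene start in kb. Coloured blocks are loci on the strand of the gene, black blocks loci on the other strand, grey bars annotated transcripts and green blocks small RNA genes; NEAT1 shows 45 mostly narrow same-strand loci and MALAT1 18, many of them wide.

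The loci were about equally frequent per kb in both RNAs, but they covered MALAT1 far more densely. NEAT1 held 1.98 loci per kb of exon and MALAT1 2.04. Loci covered 4027 of 22767 bases of NEAT1 (17.7%) and 4850 of 8829 bases of MALAT1 (54.9%). Width made the difference. NEAT1 loci had a median width of 50 bases, the step of the grid on which every locus in the list ends, and the widest was 250 bases. MALAT1 loci had a median of 150 bases, and the widest was 850 bases. The longest stretch without a same-strand locus was 1500 bases in NEAT1 and 800 bases in MALAT1. On each strand of the list, no 2 neighbouring loci lay closer than 100 bases, so a wide locus may bridge a bin with no pile-up of its own, and covered shares are upper values. Of the gaps between neighbours, 7 of 17 in MALAT1 and 5 of 44 in NEAT1 were at that minimum of 100 bases.

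The 3' ends of the 2 RNAs differed in whether a locus reached the tRNA-like piece. The last locus of MALAT1 was 350 bases wide (chr11:65505801-65506150). It ran through the bases before mascRNA and over 34 of the 57 bases of mascRNA itself, which GENCODE lists as a small RNA gene of family RF01684 at chr11:65506117-65506173. It stopped 23 bases short of the end of mascRNA. No locus lay in the 366 bases between it and the annotated end of the gene. The last locus of NEAT1 was 50 bases wide and ended 290 bases before the end of the long isoform. The tRNA-like RNA that follows, of the same family RF01684 at chr11:65445541-65445598, had 0 of its 58 bases under a locus, and neither had the 120 bases before it.

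The sequences below show these ends on the plus strand of GRCh38, from GENCODE 29 transcripts, because they are where the 2 RNAs are built alike and the loci are not. Capitals mark the tRNA-like RNA, and each line starts 120 bases before it. The locus at MALAT1 covers the first 154 bases of its line, and no locus covers any base of the NEAT1 line.
MALAT1 chr11:65505997-65506173: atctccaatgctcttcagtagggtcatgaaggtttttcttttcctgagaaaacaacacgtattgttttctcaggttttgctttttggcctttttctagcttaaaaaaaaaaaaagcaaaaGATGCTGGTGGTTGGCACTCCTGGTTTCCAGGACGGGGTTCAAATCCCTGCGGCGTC
NEAT1 chr11:65445421-65445598: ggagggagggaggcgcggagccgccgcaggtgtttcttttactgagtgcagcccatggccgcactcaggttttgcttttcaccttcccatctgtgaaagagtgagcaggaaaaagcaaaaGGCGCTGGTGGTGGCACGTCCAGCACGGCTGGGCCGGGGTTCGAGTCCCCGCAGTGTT

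The tRNA-like RNAs matched at 40 of 59 aligned positions (67.8% identity). The 120 bases before them were more A-rich and T-rich in MALAT1 (30% A and 36.7% T) than in NEAT1 (23.3% A and 21.7% T), and the longest run of A was 13 bases in MALAT1 and 5 in NEAT1. Within mascRNA, the capitals in the next line mark the bases under the locus, which ends on that grid and not at a base set by the reads.
mascRNA chr11:65506117-65506173: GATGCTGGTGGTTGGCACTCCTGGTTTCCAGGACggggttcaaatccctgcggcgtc

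Loci of NEAT1 ran through both the part that its isoforms share and the part that only the long isoform holds. The 7 shorter transcripts in GENCODE all end by chr11:65426513, and the long one runs on to 65445540 as a single exon of 22743 bases. The part found only in the long isoform (19027 bases) held 36 loci, or 1.89 per kb, and 16.0% of its bases were covered. The part shared with the short isoforms (3740 bases) held 9 loci, or 2.41 per kb, and 26.1% of it was covered. Median width was 50 bases in both parts. In the long-only part 14 of 36 loci were wider than 50 bases, and in the shared part 4 of 9. Because the shared part belongs to both isoforms, its loci cannot be assigned to either. Of the NEAT1 isoforms in GENCODE 29, only the long one holds the long-only part, which also holds the microRNA gene MIR612. Some of its sequence also occurs in transcripts of other genes, as given below. A small RNA from this part therefore cannot be assigned to the long isoform for certain.

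Single loci of NEAT1 lay at some annotated landmarks and not at others. The first locus (chr11:65422751-65422800) spanned the start of a short transcript at 65422774 and that of the long one at 65422798. Of the 8 annotated starts, 4 had no locus from 25 bases before to 74 bases after them. A locus of 250 bases (chr11:65426201-65426450) ended near the border of the shared part, just before the end of a short transcript at 65426457. The next, of 50 bases, began at 65426651, inside the long-only part. The microRNA gene MIR612 lies near the 3' end of the long isoform (chr11:65444458-65444557). A locus of 150 bases (chr11:65444501-65444650) covered 57 of its 100 bases and ran on past it. GENCODE also lists short segments inside the shared part by their family names, as miscellaneous RNAs. RF01955 (chr11:65423273-65423392) was under a locus over all of its 120 bases, RF01957 over 41 of 159, and RF01956 over none.

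The 2 opposite-strand loci of NEAT1 were 50 bases wide each. One lay 1228 to 1277 bases from the gene start (chr11:65424001-65424050), directly after a same-strand locus that ends at 65424000. The other lay 9628 to 9677 bases from the start (chr11:65432401-65432450). GENCODE 29 has no antisense gene at either place.

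Cut into 10 equal bins from 5' to 3', NEAT1 was covered most near its 5' end. Bins 1 and 2 were covered over 25.4% and 26.4% of their bases. The other bins ran from 11% in bins 6 and 8 to 23.2% in bin 4. Each bin held between 2 and 6 loci. In windows of 500 bases, 37 of 46 held some locus. Of the 45 loci, 18 were 100 bases or wider, and they lay at positions from 478 to 21877 bases from the start.

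**Figure D2:**
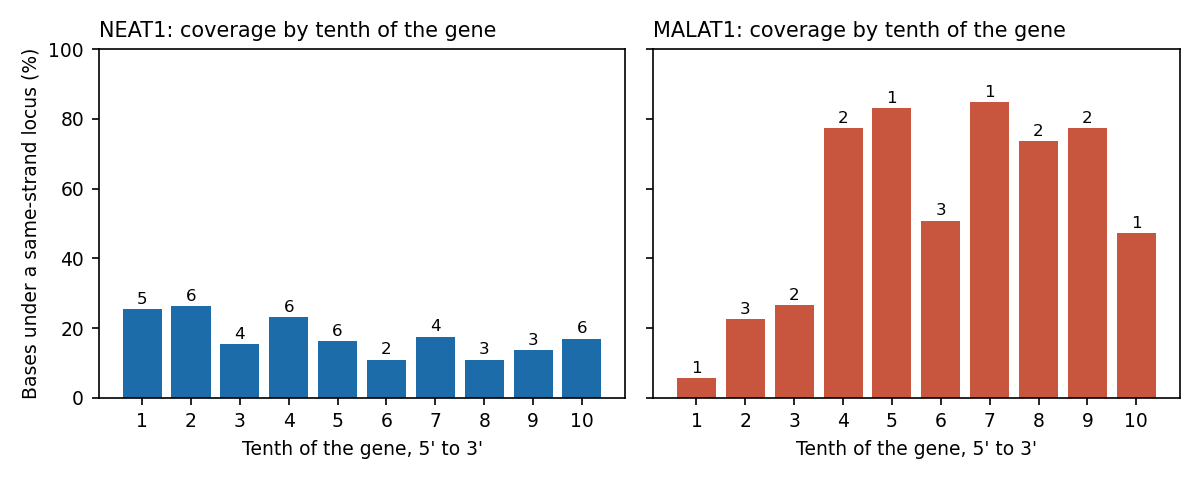
Share of bases under a same-strand locus in each of 10 equal bins of NEAT1 (left) and MALAT1 (right), 5' to 3', with the number of loci centred in that bin above each bar. NEAT1 stays between 11% and 26.4%, while MALAT1 runs from 5.67% in bin 1 to 84.9% in bin 7.

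Along MALAT1, the 5' end was sparsely covered and the body densely. The first 10% of the gene held 1 locus, over 5.67% of its bases. The middle 80% held 16 loci over 62.1% of its bases, and the last 10% held 2 loci over 47.2%, with a locus that crosses their border counted in both. In 10 equal bins, coverage was 22.7% and 26.6% in bins 2 and 3 and lay between 47.2% and 84.9% from bin 4 to bin 10. The 5 loci nearest the 5' end were 50 or 100 bases wide. The 4 widest lay in the body, with 850 bases at 3414 to 4263 bases from the start, 750 bases at 5364 to 6113, 600 bases at 6364 to 6963 and 600 bases at 7114 to 7713. The segment RF01871 (chr11:65502914-65503008), a miscellaneous RNA in GENCODE, fell in a gap and had 0 of 95 bases under a locus.

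A narrow same-strand locus lay at the start of the longest MALAT1 transcript and at a start further downstream. Of its 17 transcripts in GENCODE, the only single-exon one, of 8708 bases, starts at 65497762, and 3 short ones start at 65499042. A 50-base locus (chr11:65497751-65497800) lay across the first start, and another (chr11:65499051-65499100) began 9 bases after the second. A locus at a start was not particular to these, however. All 15 annotated starts of MALAT1 had one from 25 bases before to 74 bases after them, mostly a wider locus. RefSeq gives windows of 300 bases around starts at 65497738 and 65499045, on GRCh38.p14. The first is GC-rich (73.7% G or C, 37 CG pairs) and holds no TATAAA on either strand. The second has 46% G or C and holds TATAAA, the core of the TATA box, 30 bases before the start. Of 35116 such windows over all genes, 11.5% held TATAAA on either strand. A match is a match of letters only. The last 150 bases of the second window are shown because the locus covers their final 44 bases, with TATAAA in capitals.
MALAT1 chr11:65498945-65499094: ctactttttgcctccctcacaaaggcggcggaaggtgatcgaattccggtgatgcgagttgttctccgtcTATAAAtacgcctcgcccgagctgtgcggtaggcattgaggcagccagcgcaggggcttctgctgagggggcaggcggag

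No locus lay on the opposite strand anywhere within MALAT1. RefSeq annotates TALAM1, the antisense RNA of MALAT1, over chr11:65499312-65507432, and 0 opposite-strand loci lay over its 8121 bases. GENCODE's antisense lncRNA AP000769.2 near the 5' end had none either. The nearest opposite-strand locus was outside the gene, 50 bases wide and 238 bases before its start (chr11:65497401-65497450). Past the 3' end, same-strand loci of 50 bases began 685 and 835 bases after the annotated end. NEAT1 had its nearest outside neighbour on the opposite strand, 1474 bases before its start, and its nearest on the same strand 4274 bases before.

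Loci were sparse outside the 2 genes. On the plus strand, NEAT1 held 1.98 loci per kb and MALAT1 2.04, against 2 loci in the 52.1 kb between them, or 0.0384 per kb. The minus strand of that stretch held 3. Beside the first locus of NEAT1, which reaches over its start, the 10 kb before NEAT1 held 1 plus-strand and 1 minus-strand locus. The 10 kb after MALAT1 held 2 and 0. In the window of chromosome 11 from 65 to 66 Mb, 65 of 141 loci (46.1%) lay over the 2 genes. Outside them the window held 36 plus-strand and 40 minus-strand loci. Of its 50 protein-coding genes 21 had an exonic locus, led by CFL1, which encodes the actin-severing protein cofilin, with 5 loci. CAPN1, which encodes a calcium-dependent protease, had 3, and FAU, SYVN1 and VPS51 had 2 each.

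Loci wider than 50 bases made up a larger share in both genes than in the whole list, and most so in MALAT1. The median width was 50 bases in NEAT1, on other lncRNA exons and in the whole list, and 150 bases in MALAT1. Of NEAT1 loci 60% were 50 bases wide, of MALAT1 loci 33.3%, of loci on exons of other lncRNAs 83.5% (924 of 1106) and of the whole list 95.6%. Mean widths were 90 bases in NEAT1, 269 bases in MALAT1, 64.1 bases on other lncRNA exons and 55.0 bases overall. MALAT1 held 4 of the 87 loci of 500 bases or more. No other of 58676 genes on chromosomes held more than 2, and the exons of all other lncRNAs together held 1. NEAT1 held none.

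**Figure D3:**
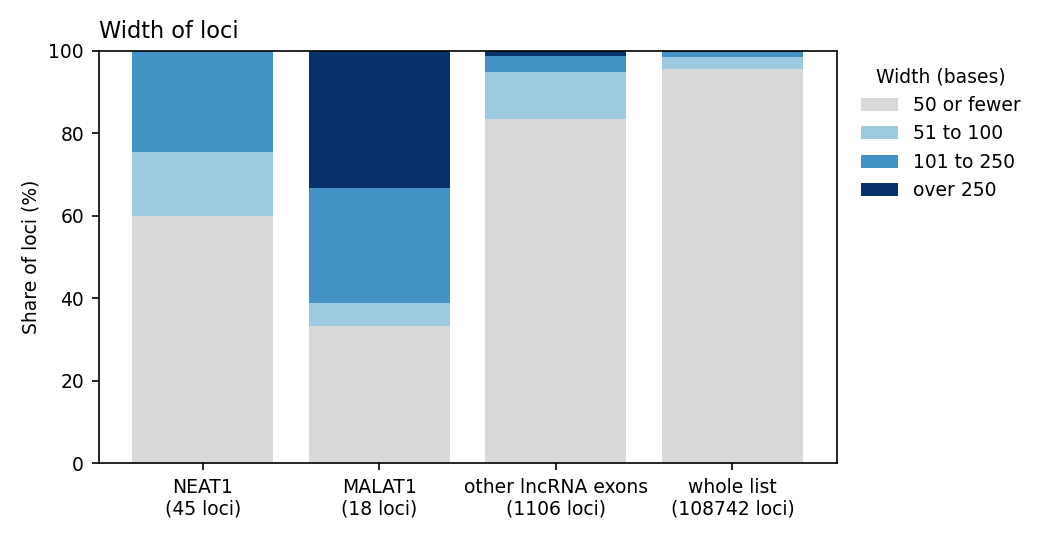
Share of loci by width in NEAT1 (45 loci), MALAT1 (18 loci), exons of other lncRNAs (1106 loci) and the whole list (108742 loci). Loci over 250 bases make up 33.3% in MALAT1, 0% in NEAT1, 1.18% on other lncRNA exons and 0.222% overall.

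Set against other long genes, MALAT1 led by covered share and NEAT1 by number of loci among lncRNAs. With 45 and 18 loci, NEAT1 and MALAT1 were first and second of 16054 lncRNA genes, and together they held 5.34% of lncRNA exonic loci (63 of 1180, summed by gene, so that a locus on several genes counts for each). Among the 593 lncRNA genes with at least 5 kb of exons, MALAT1 was first and NEAT1 second both in loci per kb and in covered share. The other 591 reached at most 0.952 loci per kb and 6.56% covered, and 24.2% of them had a locus. Among 8176 protein-coding genes of that length, 47.6% had a locus, and the highest covered share was 48.4%, in the complement gene C3. Set among them, MALAT1 would rank 1 by covered share and 33 by loci per kb, and NEAT1 26 and 34. The next by coverage were MYH7 of slow muscle at 37.0%, the lipoprotein gene APOB at 36.1%, the complement gene C4B, whose value is uncertain because a near-identical gene lies beside it, at 33.4% and SERPINA3, which encodes a protease inhibitor, at 30.9%. C3, with 4.68 loci per kb, had no locus of 500 bases or more.

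**Figure D4:**
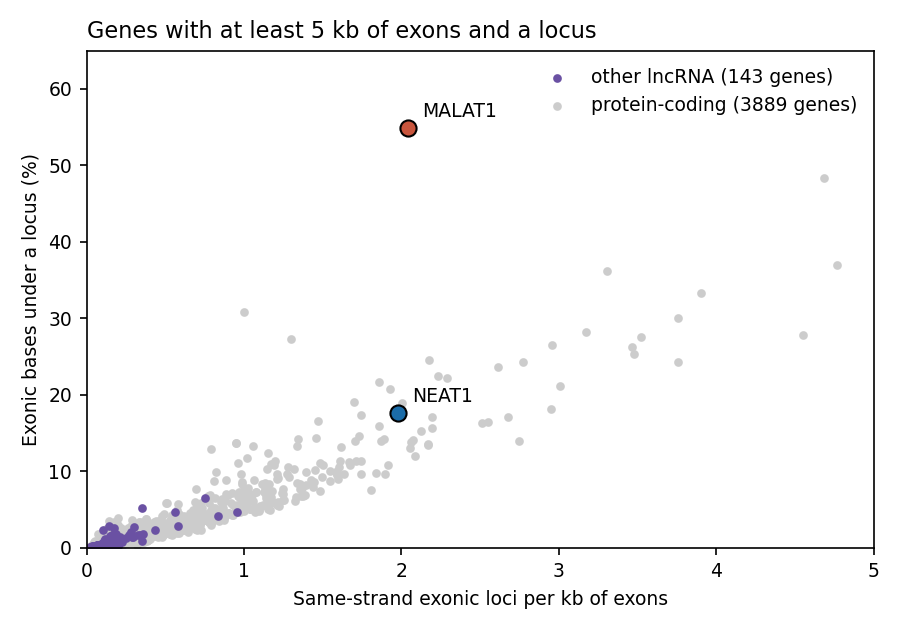
Genes with at least 5 kb of exons and at least 1 locus, by same-strand exonic loci per kb (horizontal) and by share of exonic bases under a locus (vertical). MALAT1 (2.04 per kb, 54.9%) lies above all other points, and NEAT1 (1.98 per kb, 17.7%) lies among protein-coding genes of like density and above the 143 other lncRNAs shown.

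Among autosomal lncRNAs of that length, the 5 nearest in loci per kb had under 1 per kb. They were the same for both, ordered by the difference in loci per kb over this 1 list. MIR663AHG had 0.952 loci per kb and MIR600HG 0.836, and both host a microRNA gene. In each, however, only 1 of 5 loci lay on a small RNA gene. NORAD, a cytoplasmic RNA that binds Pumilio proteins, had 0.749 with 4 loci, AC021078.1 had 0.579 and SNHG16 0.559. NORAD had the highest covered share of the 5, at 6.56%.

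By number of loci alone, the next lncRNAs on autosomes were mostly hosts of small nucleolar RNAs (snoRNAs), which guide RNA modification. SNHG14 held 13 loci, SNHG1 9, GAS5 8, AC012313.3 6 and HELLPAR 6. Most of the host loci lay on small RNA genes in GENCODE or RefSeq, with 11 of 13 for SNHG14, 8 of 9 for SNHG1 and 8 of 8 for GAS5. For NEAT1 it was 1 of 45, the locus at MIR612, and for MALAT1 1 of 18, the locus at mascRNA. The segments RF01955 and RF01957 of NEAT1, each overlapped by 1 locus, were not counted as small RNA genes here. AC012313.3 and HELLPAR had 0 of 6 each. SNHG1 and GAS5, which have under 5 kb of exons, held 2.40 and 2.2 loci per kb, somewhat above NEAT1 and MALAT1. Their covered shares, 21.2% and 22.0%, were above the 17.7% of NEAT1 and below the 54.9% of MALAT1. The second place of NEAT1 by covered share thus holds only among lncRNAs with at least 5 kb of exons.

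Sequence that NEAT1 shares with other genes held few loci. The long transcript of NEAT1 and the single-exon transcript of MALAT1 were cut into steps of 50 bases on the grid of the list, and each step was searched for 20-base words (20-mers) that also occur in annotated transcripts of other genes, on either strand. In NEAT1, 80 steps lay under a locus and 374 outside. Most 20-mers occurred elsewhere in 0 of the 80 steps under a locus and in 25 of the 374 outside (6.68%). No 20-mer occurred elsewhere in 74 of the 80 steps under a locus (92.5%) and in 298 of the 374 outside (79.7%). In the longest stretch of NEAT1 without a locus (chr11:65441401-65442900), 20% of 20-mers occurred elsewhere, against 6.20% over the whole transcript. Of NEAT1 steps with no shared 20-mer, 19.9% lay under a locus, close to the 17.6% of all steps. Whether reads from shared sequence were lost in mapping was not tested.

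MALAT1 shared almost no sequence with annotated transcripts of other genes, the only sequence searched. Of its 20-mers 0.322% occurred elsewhere, and 0 of its 173 steps were made mostly of such words. Its longest stretch without a locus, the 800 bases near the 5' end (chr11:65497801-65498600), had 0.128%. That stretch had 54.1% G or C, against 40.3% over the whole transcript. The transcripts of NEAT1 and MALAT1 shared no 20-mer with each other.

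**Figure D5:**
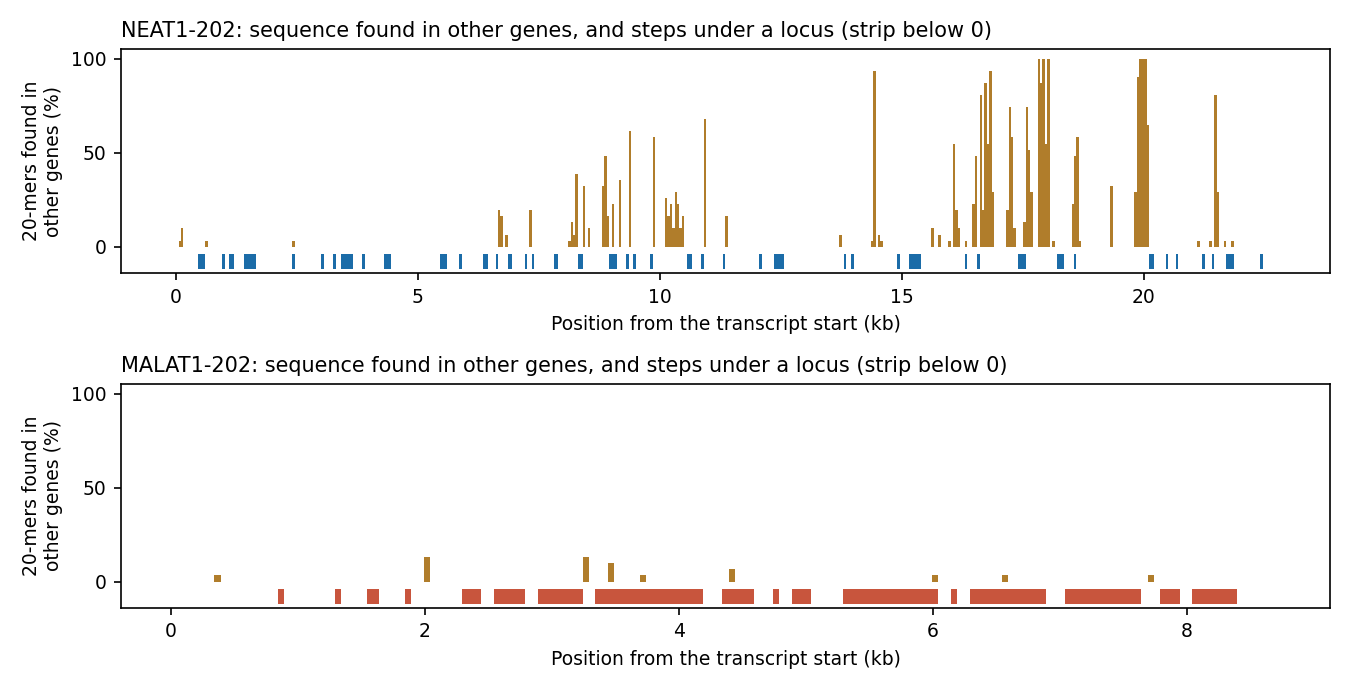
Share of 20-mers found in transcripts of other genes, for each 50-base step along the long NEAT1 transcript (upper) and the single-exon MALAT1 transcript (lower), by position from the transcript start in kb. The coloured strip below 0 marks steps under a locus; the 25 NEAT1 steps above 50% are all outside loci, and MALAT1 has no step above 50%.

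Median G or C content differed little between steps under and outside loci in NEAT1, and more in MALAT1. In MALAT1, the median G or C content was 42% under a locus (quartiles 34 and 46) and 34% outside (quartiles 30 and 46). Its longest stretch without a locus, however, had 54.1%. In NEAT1, it was 42% under a locus (quartiles 35.5 and 50.5) and 44% outside (quartiles 36 and 54). The ranges overlapped widely in both genes, and neighbouring steps are not independent.

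Genes for proteins that build paraspeckles had loci in 9 of 16 cases (56.3%, exact 95% interval 29.9 to 80.2). The share was 35.7% of all 19922 protein-coding genes (7114 genes) and 47.6% of those with at least 5 kb of exons. Most of the 16 genes reach that length. The median over the list was 1 locus, and over all protein-coding genes 0. HNRNPK, which favours the long NEAT1 isoform, held 7 loci. RBM14, needed for paraspeckles to form, held 4, and NONO, which binds and stabilises the long isoform, held 3. CPSF6, a subunit of the factor that directs polyadenylation of the short isoform, had none, and neither had DAZAP1, EWSR1 and HNRNPA1. HNRNPA1 has many near-identical copies in the genome, so its 0 is uncertain. Beyond the 5 kb cut, gene length, which differs between genes, was not taken into account, and its part in these shares was not tested.

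Genes for proteins of nuclear speckles, where MALAT1 gathers, had loci in 10 of 12 cases (83.3%, 51.6 to 97.9), against 35.7% of all protein-coding genes and 47.6% of those with at least 5 kb of exons. The median over the list was 2.5 loci. Many of these genes are long, with 13266 exonic bases in SRRM2 and 13172 in SON, against a median of 4223 over protein-coding genes. SRRM2 and SON, the core proteins of speckles, held 17 and 13. The splicing factor genes SRSF1, SRSF2 and SRSF11 held 4 each, SRSF7 3, SRSF5 2 and SRSF3 1. PNN and ACIN1, which encode proteins that join splicing complexes, held 1 each, and RNPS1 and SRRM1 had none.

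Genes that act on the 3' ends of both RNAs had loci in 7 of 14 cases (50%, 23.0 to 77.0), with a median of 0.5. The share was 35.7% over all protein-coding genes. That class does not hold RPPH1, which GENCODE lists as a ribozyme. This list and the others were chosen with earlier results of these data known. Their intervals therefore give counting error only, and no list was tested. RPPH1, the RNA subunit of RNase P, held 1 locus that covered 97.9% of its 333 bases. Among the protein subunits of RNase P, POP4 held 2 loci and POP5, RPP14 and RPP30 1 each, whereas POP1, POP7, RPP21, RPP25, RPP38 and RPP40 had none. ELAC2, which encodes RNase Z, and METTL16, whose product binds the triple helix of MALAT1, held 1 each. TRNT1, which encodes the enzyme that adds CCA to tRNA ends, had none.

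Of 14 other well known lncRNAs, 9 had a locus (64.3%, 35.1 to 87.2), with a median of 1.5. Of all lncRNA genes 5.86% had one, with a median of 0, and of the 591 others with at least 5 kb of exons 24.2%. The 14 are long, from 1496 exonic bases in HOTAIRM1 to 91667 in KCNQ1OT1, against a median of 760 over lncRNA genes. The part of length in these shares was not tested. SNHG1 held 9 loci and GAS5 8, almost all on small RNA genes, and NORAD held 4. H19, an imprinted gene, and TUG1 held 3 each, DANCR and KCNQ1OT1 2 each, and MEG3 and OIP5-AS1 1 each. CYTOR, HOTAIR, HOTAIRM1, LINC-PINT and MIAT had none. Each of the 14 held fewer loci than MALAT1.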

How the data were processed

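A single BED list of 108742 loci was used. Per its file name, the authors called it with Piranha, a peak caller that works in fixed bins, for the TCGA breast cancer cohort and collapsed it. The authors' deposited score is 1 for each locus, so the list gives neither rank nor depth, and the precision of any value is unknown beyond counting error. The submitters' processing notes name hg38, cutadapt, Bowtie2 2.2.8, SAMtools and bedtools. The sources used here do not give the Piranha version, its threshold or how many samples went in. Of the 9 libraries, 0 have a column, so no comparison between groups was made.

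Positions were converted to a count from 1. Loci were assigned to merged GENCODE 29 exons where at least 1 base overlapped on the gene's own strand, on chromosomes, with the Y copies of shared X and Y genes left out. A locus that crosses a boundary within NEAT1 was given to the part with its centre. Counts were checked by planting 1175 loci on 200 lncRNA genes, of which 200 were counted right. Sequences came from GENCODE 29 transcripts and RefSeq start windows (GRCh38.p14). Mature miR-612 is named only. Members and lists were chosen with earlier results of these data known. Named genes were the 2 members and the genes inside or beside them, all members of lists of 15 or fewer, up to 4 with most loci and 4 without for the longer list, the 5 autosomal lncRNAs nearest in loci per kb, the 5 with most loci, and the 5 protein-coding genes of the window with most loci. A gene that the rule names is not reported here. C3, MYH7, APOB, C4B and SERPINA3 were named after their values were seen. Alternatives were both strands together, loci of 18 to 50 bases, at least 50% of a locus inside, merging within 100 bases, the longest transcript, isoform boundaries moved by 500 bases and the last 500 bases of MALAT1. Python 3.11.15, numpy 2.4.6 and scipy 1.17.1 were used.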

Additional observations from a re-analysis of the deposited data

How the results depend on the processing

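Of 37 alternatives, 29 left the value close to that reported. Several of these could hardly change it, because the longest transcripts span nearly all of both genes and MALAT1 has no opposite-strand locus. With loci of 18 to 50 bases only, NEAT1 held 27 loci over 5.83% of its exonic bases, and MALAT1 held 6 over 3.40%, so the dense coverage of MALAT1 rests on its wide loci. The same setting gave 1.16 loci per kb in the long-only part of NEAT1 and 1.34 in the shared part. Merging loci 100 bases or fewer apart left 11 in MALAT1, which by construction joins its closely spaced loci, and 40 in NEAT1. The last 500 bases of MALAT1, most of them past its last locus, were covered over 26.8%. Same-strand shares stayed at 93.1% or more for NEAT1 and at 100% for MALAT1, under narrow loci and under an overlap of 50% of the locus with the span, an alternative chosen after seeing the data. The list counts moved by less than 1.5 times under each alternative. No paired analysis was possible because the list has no column for any library. No depth is given, so a missing locus does not show that no small RNA was present.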
